A study of Mus musculus with 8 samples.

Results

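The genes described here encode the proteasome: its constitutive subunits, the subunits of its immune form, its activators and its assembly chaperones. They are the protein-coding rows of the deposited gene count table whose symbol begins with Psm followed by a letter a to g and a number. That rule found 50 of the table's 43346 rows. Of these, 48 had enough counts to be tested, and Psma8 and Psmb11 had 0 counts in all 8 libraries. Of the 48, 23 were higher and 3 were lower with tumour cell medium, or 54.2%, against 36.9% of all genes tested. The largest differences were in the inducible subunits.

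The proteasome is the large protease that degrades ubiquitin-tagged proteins. Its 20S core is a barrel of alpha and beta rings. Psmb5, Psmb6 and Psmb7 carry the proteolytic sites of the constitutive core. Psmb8, Psmb9 and Psmb10 take their places in newly built cores of cells exposed to interferons or other inflammatory signals, giving the immunoproteasome. The 19S particle, made of a base and a lid, recognises and unfolds substrates. PA28, built from Psme1 and Psme2, is an alternative cap that is also interferon-inducible. Immunoproteasome and PA28 are best known for shaping the peptides that MHC class I molecules display. In bone-forming cells the proteasome also sets the lifetime of regulatory proteins, and proteasome inhibitors are known to affect bone formation.

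The experiment used MC3T3 cells, a mouse pre-osteoblast line, kept for 7 days in medium that supports mineralization, with ascorbic acid at 100 ug/mL and beta-glycerophosphate at 10 mM. The LLC_CM group (n = 4 libraries) grew in addition with 25% conditioned medium of LLC1, a line of Lewis lung carcinoma from the mouse. The NCM group (n = 4 libraries) was set against it. The labels name vehicle as the only other treatment and do not spell out NCM, so NCM is taken here as the vehicle group. A serum-free medium had been left on the LLC1 cells for 48 hours and filtered, and MC3T3 is 1 cell line, studied without the bone, marrow or tumour around it. Nothing in the labels says whether the 4 libraries of a group came from separate cultures, so the p-values measure the spread between these libraries, which may be technical.

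Library totals ran from 27264212 to 35573953 counts, and 3 counts in the shallowest library equal 0.110 CPM. CPM, a gene's count scaled to a common library total after TMM adjustment, is used below as its level. Differences were tested with edgeR's quasi-likelihood test with Benjamini-Hochberg adjustment at 0.05. Of 14991 genes tested, 36.9% passed, 18.8% being higher and 18.1% lower in LLC_CM. The 4 values of one group all lay beyond those of the other in 36.3% of genes, 18.1% with LLC_CM above and 18.2% with LLC_CM below. All 7 osteoblast markers were detected and lower in LLC_CM, with summed levels of 45326 to 55908 CPM in LLC_CM and 65393 to 87064 CPM in NCM libraries.

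Across the 48 tested genes, 23 were higher in LLC_CM, 3 were lower and 22 did not pass. That is 54.2% called, against 36.9% of all genes tested. A positive log2 fold change was found in 43 of the 48, with a median of 0.20 beside 0.01 over all genes. In 19 the LLC_CM values lay entirely above the NCM values, in 3 entirely below, and in 26 the groups overlapped. The groups lay apart in 36.3% of all genes tested, 18.1% with LLC_CM above and 18.2% with LLC_CM below. Together the 50 rows took 0.403% to 0.447% of all counts in LLC_CM and 0.369% to 0.399% in NCM libraries. The genes fell into sets of unlike size of change. The 5 inducible genes (Psmb8, Psmb9, Psmb10, Psme1 and Psme2) had log2 fold changes of 0.87 to 2.24, and the other 43 had -0.42 to 0.51.

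Psmb8 encodes LMP7, the immune counterpart of Psmb5 with chymotrypsin-like activity. It lies at chr17:34197721-34201454 (mm10) in the MHC region, with the peptide transporter gene Tap1 on one side and Tap2 on the other. Its levels were 37.6, 38.6, 32.4 and 35.2 CPM in LLC_CM, against 10.2, 9.88, 8.37 and 8.45 CPM in NCM. The lowest LLC_CM library was well above the highest NCM library. Psmb8 rose 3.89-fold (log2 fold change 1.96 ± 0.09 SE, adjusted p = 3.7e-10).

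Psmb9 encodes LMP2, the immune counterpart of Psmb6, and lies at chr17:34181988-34187764 on the far side of Tap1. Its levels were 12.4, 11.1, 10.7 and 11.6 CPM in LLC_CM, against 2.73, 2.34, 2.15 and 2.46 CPM in NCM. The NCM levels rest on 61 to 80 counts per library, and the groups did not overlap. Psmb9 rose 4.72-fold (log2 fold change 2.24 ± 0.12 SE, adjusted p = 1.4e-09), the largest change among the 48. Its exons share 212 bases, 5.79% of their length, with Tap1 on the opposite strand. The library kit does not mark strand, so reads from that stretch cannot be told apart. Tap1 had 5505 counts in LLC_CM and 3046 in NCM, summed over 4 libraries each, and its part in the Psmb9 value was not tested.

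Psmb10 encodes MECL-1, the immune counterpart of Psmb7 with trypsin-like activity, and lies outside the MHC region at chr8:105935728-105938392. Its levels were 14.9, 12.3, 14.2 and 18.6 CPM in LLC_CM, against 6.75, 7.58, 7.63 and 6.18 CPM in NCM. Again the groups did not overlap, with replicate 4 the highest of LLC_CM. The rise was 2.14-fold (log2 fold change 1.10 ± 0.13 SE, adjusted p = 7.5e-06).

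The PA28 cap genes lie close together on chromosome 14. Psme1, the alpha chain at chr14:55578123-55581529, had 48.3, 51.2, 36.1 and 41.8 CPM in LLC_CM, against 25.8, 24.8, 23.8 and 22.5 CPM in NCM. Psme2, the beta chain at chr14:55587441-55591113, had 81.9, 84.7, 65.3 and 70.3 CPM in LLC_CM, against 40.4, 45.6, 41.85 and 35.4 CPM in NCM. Neither gene's groups overlapped, and LLC_CM replicate 3 was the lowest of its group for both. Psme1 rose 1.83-fold (log2 fold change 0.87 ± 0.10 SE, adjusted p = 5.3e-06). Psme2 rose 1.85-fold (log2 fold change 0.89 ± 0.09 SE, adjusted p = 2.5e-06). The count of Psme1 was 58.6% ± 2.24 of that of Psme2 in LLC_CM and 59.7% ± 4.71 in NCM (SD, n = 4 each), and these ratios overlapped.

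**Figure D1:**
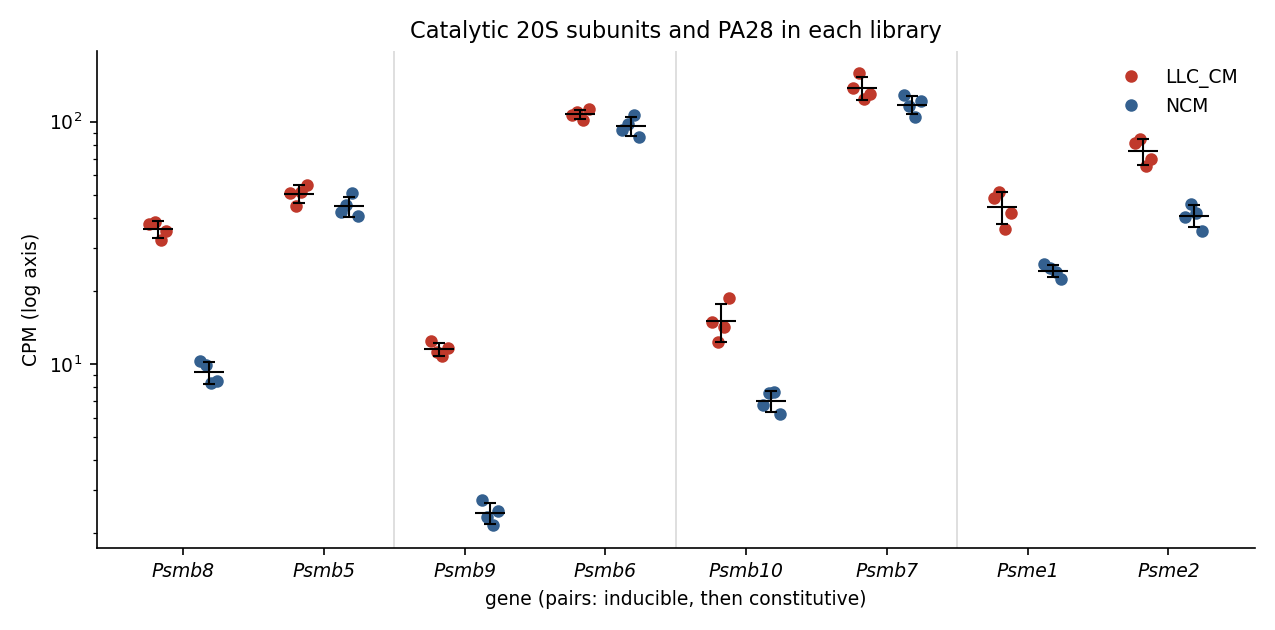
Level in CPM (log axis) of the catalytic 20S genes, each inducible gene left of its constitutive counterpart, and of both PA28 genes. Points are libraries, with LLC_CM (red) left of NCM (blue), and bars give the mean and SD of 4 libraries. The red and blue points are apart for Psmb8, Psmb9, Psmb10, Psme1 and Psme2 and overlap for Psmb5, Psmb6 and Psmb7.

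Immune cells carry the immunoproteasome as a standing feature, so their markers bear on these levels. In bulk RNA a change in the number of cells of a type cannot be told apart from a change in RNA per cell. Of 9 macrophage markers 5 were tested and 3 were higher in LLC_CM, beside 18.8% of all genes tested. Fcer1g rose by 1.54, Lyz2 by 0.81 and Cd14 by 0.52 on the log2 scale (adjusted p = 4.3e-04, 0.0089 and 0.0073), all without overlap. Csf1r (log2 fold change -0.48, adjusted p = 0.20) and Cd68 (log2 fold change 0.12, adjusted p = 0.71) did not pass. The summed level of the 9 markers was 23.0 to 36.5 CPM in LLC_CM and 15.1 to 20.2 CPM in NCM libraries, most of it from Lyz2. Tyrobp and Itgam were at 0 in all libraries, and Ptprc, the marker of all white blood cells, had 0 counts in LLC_CM and 4 in NCM. The 6 lymphocyte markers summed to at most 0.129 CPM in LLC_CM and 0.212 CPM in NCM, with Cd3e, Cd4 and Cd8a at 0. Dendritic markers summed to 0.504 to 0.986 CPM in LLC_CM and 0.212 to 0.307 CPM in NCM, with Flt3 at 0. Among them only Cd74 was tested, and it was higher (log2 fold change 1.33, adjusted p = 0.0073). Its mean was 0.652 CPM in LLC_CM and 0.254 CPM in NCM. H2-Aa had too few counts to be tested, with 11 in LLC_CM and 0 in NCM. Epithelial markers summed to 1.11 to 2.24 CPM in LLC_CM and 0.318 to 0.709 CPM in NCM, with Epcam, Krt8 and Krt18 at 0. Of these only Muc1 was tested, and it was higher (log2 fold change 1.93, adjusted p = 5e-04). Its mean was 1.46 CPM in LLC_CM and 0.383 CPM in NCM. Cdh1 had 0.067 CPM in LLC_CM and 0.112 CPM in NCM, and Krt19 had 0.039 and 0.0085 CPM. The part of these cells' RNA in the proteasome values was not tested.

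The constitutive catalytic genes had log2 fold changes of 0.17 to 0.22. Psmb5, with the chymotrypsin-like site, had 50.8, 44.65, 51.3 and 54.8 CPM in LLC_CM, against 42.3, 45.1, 50.7 and 40.9 CPM in NCM. Psmb6, with the caspase-like site, had 106, 109, 101 and 112 CPM in LLC_CM, against 92.4, 97.7, 106 and 86.1 CPM in NCM. Psmb7, with the trypsin-like site, had 137, 158, 124 and 130.2 CPM in LLC_CM, against 129, 116, 105 and 121 CPM in NCM. The groups overlapped for all 3 genes. NCM replicate 3 was the highest NCM library for Psmb5 and Psmb6 and the lowest for Psmb7.

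The log2 fold change was 0.17 ± 0.08 for Psmb5 (SE, adjusted p = 0.11) and 0.17 ± 0.07 for Psmb6 (SE, adjusted p = 0.064), and neither passed. Psmb7 rose by 0.22 ± 0.08 on the log2 scale (SE, adjusted p = 0.041). These calls turned on single libraries. Psmb7 no longer passed without LLC_CM replicate 1 or 2 or NCM replicate 2, 3 or 4, where adjusted p was 0.061 to 0.12. Psmb5 passed without LLC_CM replicate 2 (adjusted p = 0.029) or NCM replicate 3 (adjusted p = 0.033). Psmb6 passed without NCM replicate 3 (adjusted p = 0.017).

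Overlapping genes touch some of these rows. Psmb7 shares 405 exonic bases, 11.8% of its exonic length, with Nek6 on the opposite strand, and Nek6 had 7495 counts in LLC_CM and 3385 in NCM. The microRNA gene Mir686 lies within exonic sequence of Psmb5 on the same strand over 109 bases, 12.1% of its exonic length. The Mir686 row held 1774 counts in LLC_CM and 1422 in NCM, and how reads of that stretch were assigned is not given in the labels. The part of either gene in the Psmb7 and Psmb5 values was not tested.

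The inducible and constitutive genes can be compared within a library as a ratio of RNA counts, which does not depend on library scaling. Subunit proteins and their exchange in assembled cores were not measured. Psmb8 counts were 74.1%, 86.5%, 63.1% and 64.3% of Psmb5 counts in LLC_CM, against 24.2%, 21.9%, 16.5% and 20.7% in NCM. Psmb9 counts were 11.6%, 10.2%, 10.6% and 10.3% of Psmb6 counts in LLC_CM, against 2.95%, 2.39%, 2.03% and 2.86% in NCM. Psmb10 counts were 10.9%, 7.76%, 11.4% and 14.3% of Psmb7 counts in LLC_CM, against 5.23%, 6.56%, 7.28% and 5.10% in NCM. In all 3 pairs every LLC_CM library was above every NCM library. The margin was narrowest for Psmb10 to Psmb7, where LLC_CM replicate 2 stood just above NCM replicate 3. These counts are not scaled for gene length. Per kilobase of the deposited table's gene lengths, Psmb8 was at 22.9% of Psmb5 in LLC_CM and 6.63% in NCM. Psmb9 was at 5.46% of Psmb6 in LLC_CM and 1.31% in NCM, and Psmb10 at 10.6% of Psmb7 in LLC_CM and 5.78% in NCM.

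The ratio of Psmb8 to Psmb5 was 3.46-fold higher in LLC_CM (log2 difference 1.79 ± 0.16 SE, n = 4 each). That of Psmb9 to Psmb6 was 4.22-fold higher (2.08 ± 0.13). That of Psmb10 to Psmb7 was 1.81-fold higher (0.86 ± 0.22). An exact two-sided permutation test over the 70 possible groupings of the 8 libraries gave p = 0.0286 for each pair, and 0.0286 after adjustment over the 3 pairs, the smallest value this design allows. Without any single NCM library the exact p of the Psmb10 to Psmb7 ratio was 0.057, with log2 differences of 0.784 to 0.955.

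**Figure D2:**
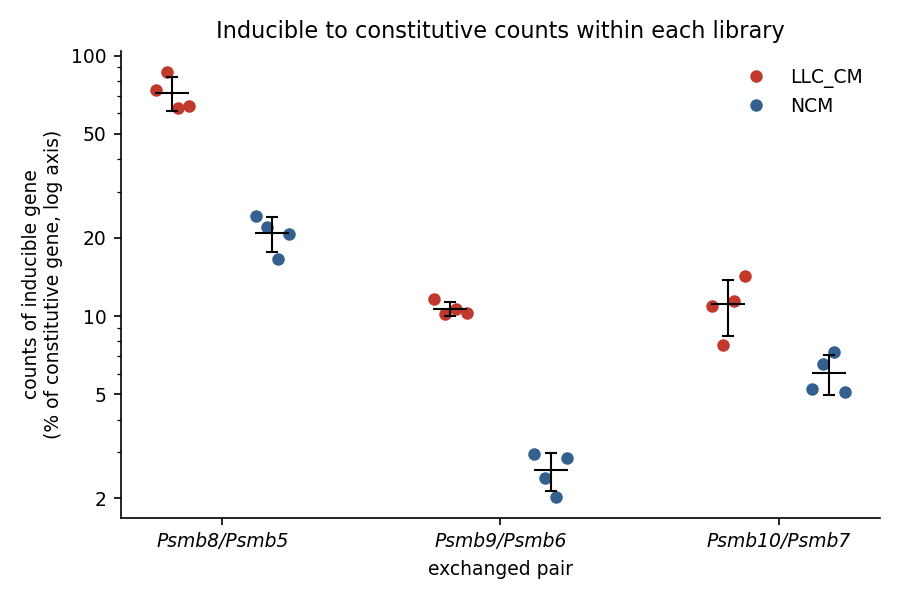
RNA counts of each inducible catalytic gene as a percentage of those of its constitutive counterpart, within each library (log axis) and not scaled for gene length. Points are libraries, with LLC_CM (red) left of NCM (blue), and bars give the mean and SD of 4 libraries. Psmb8 stood at 72.0% ± 10.8 of Psmb5 in LLC_CM and 20.8% ± 3.22 in NCM, Psmb9 at 10.7% ± 0.669 of Psmb6 in LLC_CM and 2.56% ± 0.431 in NCM, and Psmb10 at 11.1% ± 2.68 of Psmb7 in LLC_CM and 6.04% ± 1.06 in NCM.

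The constitutive transcripts still made up most of the catalytic set. Psmb8, Psmb9 and Psmb10 together held 17.5% ± 0.727 of the counts of the 6 catalytic genes in LLC_CM and 6.75% ± 0.337 in NCM (SD, n = 4 each). Counts grow with transcript length, so the share was also taken per length of a coding transcript of each gene in GENCODE M21. Transcripts with the annotation's CCDS tag were preferred, then those tagged basic, and then the longest. On that scale the share was 12.0% ± 0.526 in LLC_CM and 4.52% ± 0.231 in NCM. With the gene lengths of the deposited table it was 10.95% ± 0.729 in LLC_CM and 4.58% ± 0.244 in NCM. In summed level the inducible catalytic genes stood at 62.4 ± 3.74 CPM in LLC_CM and 18.7 ± 1.31 CPM in NCM. The constitutive catalytic genes stood at 295 ± 14.6 CPM in LLC_CM and 258 ± 7.00 CPM in NCM.

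Per kilobase of transcript, Psmb8 was the most abundant inducible catalytic gene in both groups, at 22.1 CPM per kb in LLC_CM and 5.67 in NCM. Psmb10 had 11.4 CPM per kb in LLC_CM and 5.37 in NCM. Psmb9 was the least abundant, at 8.47 CPM per kb in LLC_CM and 1.79 in NCM. With the deposited gene lengths Psmb10 came above Psmb8 in NCM, at 5.54 ± 0.549 CPM per kb for Psmb10 and 3.38 ± 0.352 for Psmb8 (SD, n = 4). The order of Psmb8 and Psmb10 in NCM thus depends on the length used.

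Short stretches around the starts of some of these genes carry letters of motifs known from interferon or oxidative stress signalling. Those of Psmb8 and Psme1 are shown because they hold the only matches to the interferon motifs among the 5 inducible genes. Psmb9, Psmb10 and Psme2 had no such match. The stretches of the structural gene Psmb3 and the catalytic genes Psmb5 and Psmb6 are shown as a contrast. Windows of 300 bases that span each RefSeq gene start and lie mostly upstream of it (GRCm38.p6) were searched on both strands. Of the 50 genes 42 had a window, with 45 windows in all. Shares of these 42 are given per gene, and those of all windows per window. Capitals mark the match, and each line reads along the gene's strand.
Psmb8, plus strand, chr17:34198088-34198117: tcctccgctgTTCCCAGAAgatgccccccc
Psme1, plus strand, chr14:55578493-55578522: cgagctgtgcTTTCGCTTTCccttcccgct
Psmb3, plus strand, chr11:97703261-97703290: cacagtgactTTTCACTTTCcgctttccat
Psmb5, minus strand, chr14:54618023-54618052: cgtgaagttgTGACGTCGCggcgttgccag
Psmb6, plus strand, chr11:70525338-70525367: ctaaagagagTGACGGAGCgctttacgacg

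The Psmb8 match is to TTCNNNGAA, the form of the gamma-activated site known from interferon signalling. It starts 97 bases before the RefSeq start, within an exon that GENCODE places further upstream. That motif stood in 8.3% of all 32851 windows and in 3 of the 42 genes (7.14%), Psmb8, Psmd2 and Psmg1. The Psme1 and Psmb3 matches are to TTTCNNTTTC, the form of the interferon-stimulated response element. The Psme1 match starts 9 bases after the RefSeq start, so it lies within the transcript, and the Psmb3 match starts 163 bases before it. This motif stood in 3.44% of all windows and in 5 of the 42 genes (11.9%), of which Psme1 was the only inducible gene. The Psmb5 and Psmb6 matches are to TGACNNNGC, the form of the antioxidant response element used by Nrf1 and Nrf2. They start 47 bases before the Psmb5 start and 9 bases before the Psmb6 start. This motif stood in 12.4% of all windows and in 6 of the 42 genes (14.3%), with 0 of the 5 inducible genes. CCAAT, the box bound by NF-Y, stood in 37.4% of all windows and in 15 of the 42 genes (35.7%). None of the matches printed overlaps a match to another of these motifs. The matches describe letters in these windows and show no binding.

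Outside the inducible genes, the 31 constitutive 20S and 19S subunits had small log2 fold changes, from -0.35 to 0.34 with a median of 0.16. Of these, 12 were higher, 2 were lower and 17 did not pass. That is 45.2% called, against 36.9% of all genes tested, of which 18.8% were higher and 18.1% lower. In 10 the LLC_CM values lay entirely above the NCM values, in 2 entirely below, and in 19 the groups overlapped. Among all genes tested, 18.1% lay entirely above and 18.2% entirely below. Shorter genes tended to have higher log2 fold changes. Spearman's rho between log2 fold change and deposited gene length was -0.35 across the 31 subunits, -0.45 across the 43 tested genes other than the 5 inducible ones and -0.20 across all 14991 genes. With the length of the coding transcript instead, rho was -0.281 across the 31 subunits and -0.46 across the 43 genes. These describe genes measured in the same 8 libraries, and the part of length in the small differences was not tested.

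**Figure D3:**
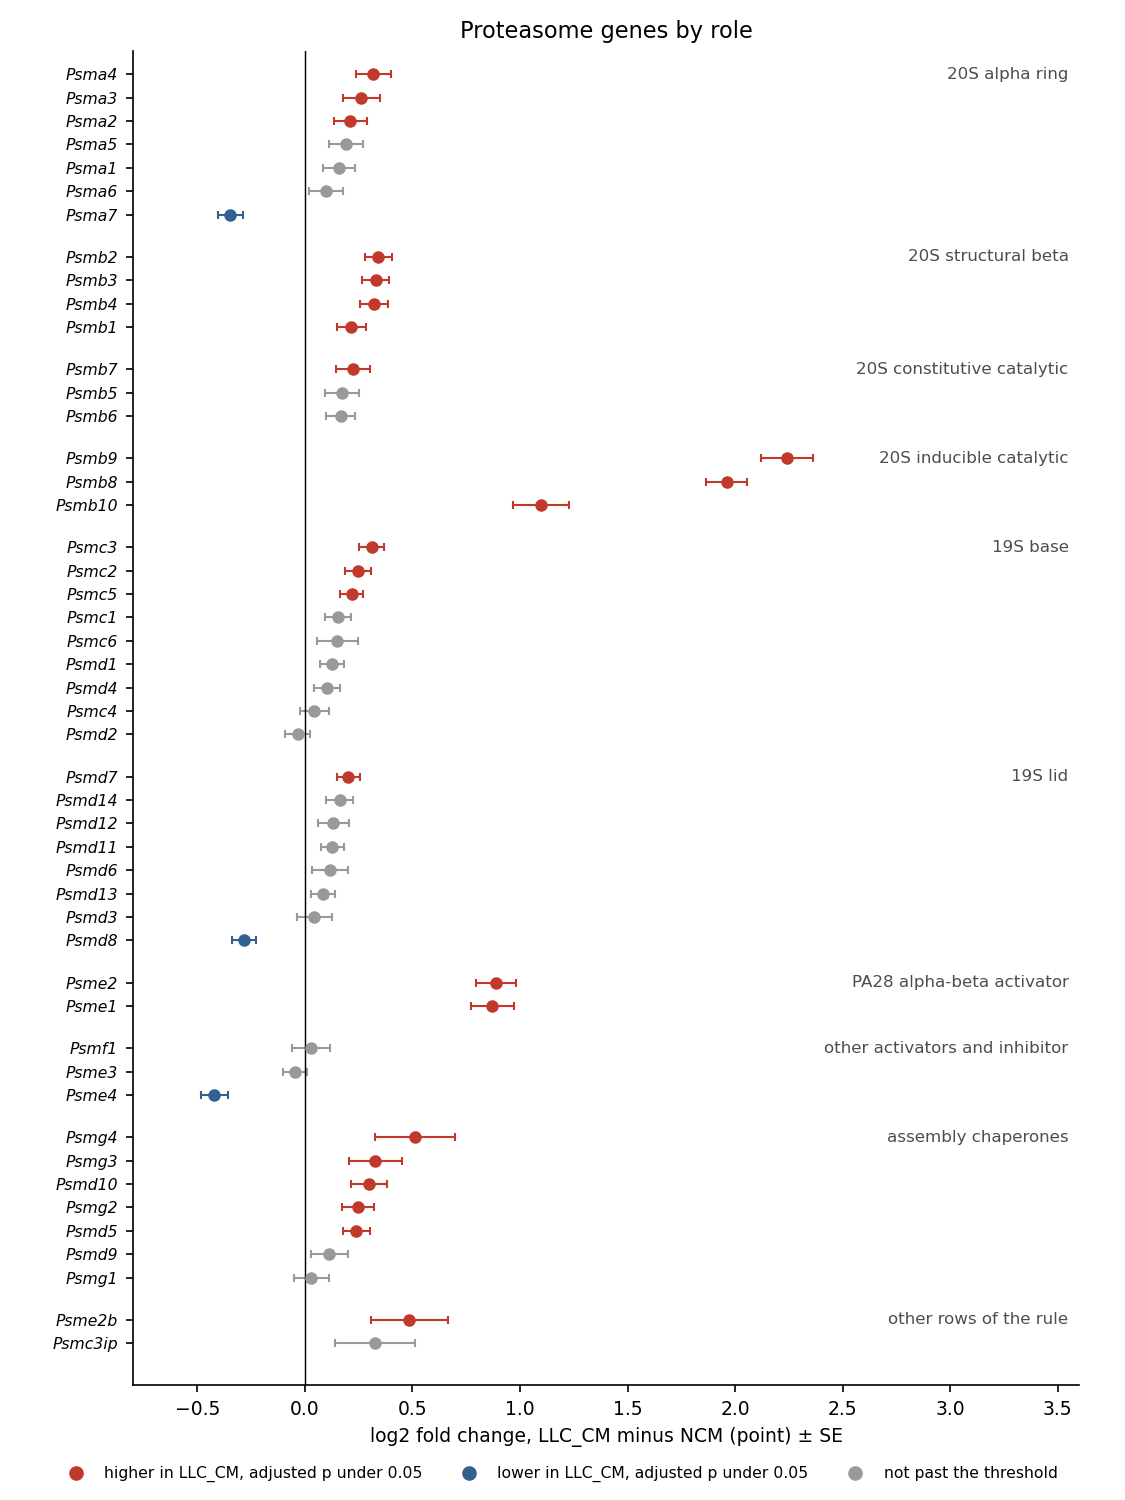
Log2 fold change (LLC_CM minus NCM) with its SE for the 48 tested genes, grouped by role. Red points were higher and blue points lower in LLC_CM at an adjusted p under 0.05, and grey points did not pass. The inducible catalytic and PA28 genes lie at 0.87 to 2.24, the lower calls are Psma7, Psmd8 and Psme4, and the rest lie at 0.51 or below.

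The alpha ring, which gates the core, had 3 genes higher, 1 lower and 3 that did not pass. That is 57.1% called, against 36.9% of all genes tested. Psma4 had 136, 159, 124 and 131 CPM in LLC_CM, against 122, 107, 98.2 and 115 CPM in NCM. Its groups did not overlap, and it rose by 0.32 ± 0.08 on the log2 scale (SE, adjusted p = 0.0067). Psma7, another alpha ring subunit, had 103, 106, 99.3 and 102 CPM in LLC_CM, against 139, 126, 135 and 121 CPM in NCM. All 4 LLC_CM libraries were below all 4 NCM libraries. Psma7 fell by 0.35 ± 0.06 on the log2 scale (SE, adjusted p = 2.1e-04), a level 1.27-fold lower in LLC_CM.

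The other alpha ring genes had positive log2 fold changes of 0.10 to 0.26 and overlapping groups. Psma2 and Psma3 passed (adjusted p = 0.044 and 0.029). Both calls were lost without LLC_CM replicate 1 or 2 or NCM replicate 2 or 3, where adjusted p was 0.093 to 0.13 for Psma2 and 0.053 to 0.083 for Psma3. The Psma2 call was also lost without NCM replicate 4 and with DESeq2. Psma5 (adjusted p = 0.07), Psma1 (0.12) and Psma6 (0.38) did not pass. Psma5 passed without LLC_CM replicate 3 (adjusted p = 0.017).

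All 4 structural beta subunits, which carry no proteolytic site, were higher, as were 18.8% of all genes tested. Psmb2 had 63.9, 60.4, 60.1 and 69.2 CPM in LLC_CM, against 49.3, 51.1, 50.1 and 49.5 CPM in NCM. The groups did not overlap, and Psmb2 rose by 0.34 ± 0.06 on the log2 scale (SE, adjusted p = 4e-04). Psmb1 had 236, 252, 205 and 220.1 CPM in LLC_CM, against 208, 197, 199 and 183 CPM in NCM. LLC_CM replicate 3 lay below NCM replicate 1, so the groups overlapped, and the rise was 0.22 ± 0.07 (SE, adjusted p = 0.024). Psmb1 no longer passed without LLC_CM replicate 1 or 2 or NCM replicate 2 or 4, where adjusted p was 0.057 to 0.08. Psmb3 rose by 0.33 and Psmb4 by 0.32 on the log2 scale, both without overlap (adjusted p = 5.9e-04 and 0.0012). Per kilobase of transcript, the 4 genes lay within 73.8 to 130.0 CPM per kb in LLC_CM and 58.2 to 112 in NCM. With the deposited gene lengths they lay within 42.6 to 220.6 in LLC_CM and 33.9 to 189.9 in NCM. How close their levels were thus depends on the length used.

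The 19S base holds the ring of ATPases that unfolds substrates, Psmc1 to Psmc6, with the scaffolds Psmd1 and Psmd2 and the ubiquitin receptor Psmd4. Of these 9 genes 3 were higher and 6 did not pass. The share called, 33.3%, was close to the 36.9% of all genes tested. The ATPase gene Psmc3 had 192, 184, 178 and 199 CPM in LLC_CM, against 153, 158, 156 and 141 CPM in NCM. Its groups did not overlap, and it rose by 0.31 ± 0.06 on the log2 scale (SE, adjusted p = 6.2e-04). Psmd2 had 290.2, 269, 279.8 and 299 CPM in LLC_CM, against 302, 296, 286 and 279.7 CPM in NCM. It was the highest of the 48 genes in CPM in both groups, its groups overlapped, and its log2 fold change was -0.03 ± 0.06 (SE, adjusted p = 0.70). The ATPase genes Psmc2 and Psmc5 rose by 0.25 and 0.22 (adjusted p = 0.0041 and 0.0046), without overlap. For Psmd1 every LLC_CM library was above every NCM library, but its log2 fold change of 0.12 did not pass (adjusted p = 0.095). Psmc1, Psmc4, Psmc6 and Psmd4 had log2 fold changes of 0.04 to 0.15 and did not pass. Psmc1 passed without LLC_CM replicate 3 (adjusted p = 0.034).

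The 19S lid removes ubiquitin chains through Psmd14, a metalloprotease. Of its 8 genes 1 was higher, 1 was lower and 6 did not pass. The share called, 25.0%, was below the 36.9% of all genes tested. Psmd7, the partner of Psmd14, had 144, 139, 131 and 146 CPM in LLC_CM, against 122, 121, 124 and 119.9 CPM in NCM. Its groups did not overlap, and it rose by 0.20 ± 0.05 on the log2 scale (SE, adjusted p = 0.008). Psmd8, a small lid subunit, had 103, 100.4, 98.9 and 93.8 CPM in LLC_CM, against 129, 120.1, 118 and 115 CPM in NCM. All LLC_CM values lay below the NCM values, and Psmd8 fell by 0.28 ± 0.06 (SE, adjusted p = 8.9e-04). Psmd14 itself had a log2 fold change of 0.16 (adjusted p = 0.058) and passed without LLC_CM replicate 3 (adjusted p = 0.038). Psmd11, a lid scaffold subunit, had a log2 fold change of 0.13 (adjusted p = 0.081), with every LLC_CM library above every NCM library. Psmd3, Psmd6, Psmd12 and Psmd13 had log2 fold changes of 0.04 to 0.13 and did not pass.

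Among the other caps and the inhibitor, 1 gene fell, a share of 33.3% called beside the 36.9% of all genes tested. Psme4, which encodes the nuclear activator PA200, had 150.4, 154, 143 and 136 CPM in LLC_CM, against 201, 180.4, 192 and 208 CPM in NCM. The groups did not overlap. Psme4 fell by 0.42 ± 0.06 on the log2 scale (SE, adjusted p = 6.6e-05), a level 1.34-fold lower in LLC_CM and the lowest log2 fold change of the 48. Psmf1, which encodes the inhibitor PI31, had 33.3, 28.9, 32.4 and 35.6 CPM in LLC_CM, against 32.2, 33.7, 34.7 and 27.1 CPM in NCM. Those groups overlapped and the log2 fold change was 0.03 ± 0.09 (SE, adjusted p = 0.83). Psme3, the nuclear PA28 gamma chain, stood at 76.1 ± 1.19 CPM in LLC_CM and 78.6 ± 4.49 CPM in NCM (adjusted p = 0.57).

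Assembly chaperones escort core and base intermediates without entering the mature particle. Of 7, 5 were higher and 2 did not pass, a share of 71.4% called beside the 36.9% of all genes tested. Psmg4, a core chaperone and the lowest of the 48 genes in NCM, had 3.03, 2.96, 2.58 and 4.18 CPM in LLC_CM, against 1.91, 2.23, 2.19 and 2.59 CPM in NCM. LLC_CM replicate 3 and NCM replicate 4 overlapped, and the log2 fold change was 0.51 ± 0.19 (SE, adjusted p = 0.042) on 56 to 140 counts per library. Psmg1, its relative in core assembly, had 28.0, 32.6, 28.6 and 26.5 CPM in LLC_CM, against 30.9, 28.0, 28.2 and 26.1 CPM in NCM. Its groups overlapped widely and it did not pass (log2 fold change 0.03 ± 0.08 SE, adjusted p = 0.81).

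The base chaperones Psmd5 and Psmd10 rose by 0.24 and 0.30 on the log2 scale (adjusted p = 0.0077 and 0.011), and the core chaperones Psmg2 and Psmg3 by 0.25 and 0.33 (adjusted p = 0.016 and 0.049). All 4 had groups without overlap. The base chaperone Psmd9 had a log2 fold change of 0.11 (adjusted p = 0.33). Single libraries decided some of these calls. The Psmg4 call was lost without LLC_CM replicate 1 or 4 or NCM replicate 1, 2 or 3 (adjusted p = 0.066 to 0.17), and with limma-voom (0.054). The Psmg3 call was lost without any library other than LLC_CM replicate 2 (adjusted p = 0.051 to 0.16), and with DESeq2 size factors (0.056). The Psmg2 call was lost without LLC_CM replicate 4 (adjusted p = 0.061).

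The remaining rows are tissue-restricted genes, a copy of Psme2 and a gene that shares only the name. Psma8, a testis alpha subunit, and Psmb11, a thymus catalytic subunit, had no count in any library, which allows at most 0.110 CPM in the shallowest. Psmc3ip, known as a meiotic recombination factor, had 4.86, 3.40, 5.77 and 7.05 CPM in LLC_CM, against 4.503, 3.93, 3.96 and 4.51 CPM in NCM. It did not pass (adjusted p = 0.19), LLC_CM replicate 2 was the lowest of all 8 libraries, and without that library it passed (log2 fold change 0.48, adjusted p = 0.023). Psmc3ip shares 385 exonic bases, 21.2% of its exonic length, with Mlx on the opposite strand. Mlx had 6997 counts in LLC_CM and 5885 in NCM, beside 685 and 498 for Psmc3ip. The part of Mlx in the Psmc3ip values was not tested.

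Psme2b is a near-identical copy of Psme2 on chromosome 11. The stretches below, bases 484 to 543 of the 717-base coding sequences in GENCODE M21, are shown because they bear on how reads of the genes can be separated, and capitals mark the bases that differ.
Psme2: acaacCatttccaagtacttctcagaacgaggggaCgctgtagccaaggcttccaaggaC
Psme2b: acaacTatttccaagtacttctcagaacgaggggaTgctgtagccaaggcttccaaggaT

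The coding sequences differed at 5 of 717 bases, 3 of them in the stretch shown. Psme2b had 8.95, 11.7, 9.27 and 11.8 CPM in LLC_CM, against 9.48, 5.88, 5.26 and 9.05 CPM in NCM. The groups overlapped, and NCM replicates 1 and 4 stood among the LLC_CM libraries. The log2 fold change was 0.49 ± 0.18 (SE, adjusted p = 0.048). That call was lost without LLC_CM replicate 2 or 4 or NCM replicate 2 or 3 (adjusted p = 0.11 to 0.14), and with DESeq2 size factors (0.052). Psme2b counts were 13.9% ± 2.42 of Psme2 counts in LLC_CM and 18.6% ± 6.87 in NCM (SD, n = 4 each), so the split of reads between the copies is uncertain. Processed pseudogenes at least 90% identical over at least 20% of the transcript were also found for Psma2, Psma3, Psma4, Psma5, Psmb1, Psmb3, Psmb5, Psmb6, Psmc1, Psmd2, Psmd11, Psmd14 and Psme1, and Gm7928 was found for both Psme2 and Psme2b. The Gm7928 row held 10 counts in LLC_CM and 6 in NCM, summed over 4 libraries each. Other rows held more. Gm13835, 100% identical to Psma3 over 23.4% of the transcript, held 1596 counts in LLC_CM and 1125 in NCM. For Psma5, Gm8394 held 815 and 521 counts and Gm12989 held 736 and 502. The part of pseudogene reads in the values of these genes was not tested. None passing these limits was found for Psmb8, Psmb9 or Psmb10.

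The small changes varied with the library. LLC_CM replicate 3 was the lowest of its group in 26 of the 48 genes, and LLC_CM replicate 2 the highest in 23. NCM replicate 1 was the highest of its group in 26, and NCM replicates 3 and 4 the lowest in 20 and 19. For the 5 inducible genes every LLC_CM library stood above every NCM library whichever replicate was highest.

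**Figure D4:**
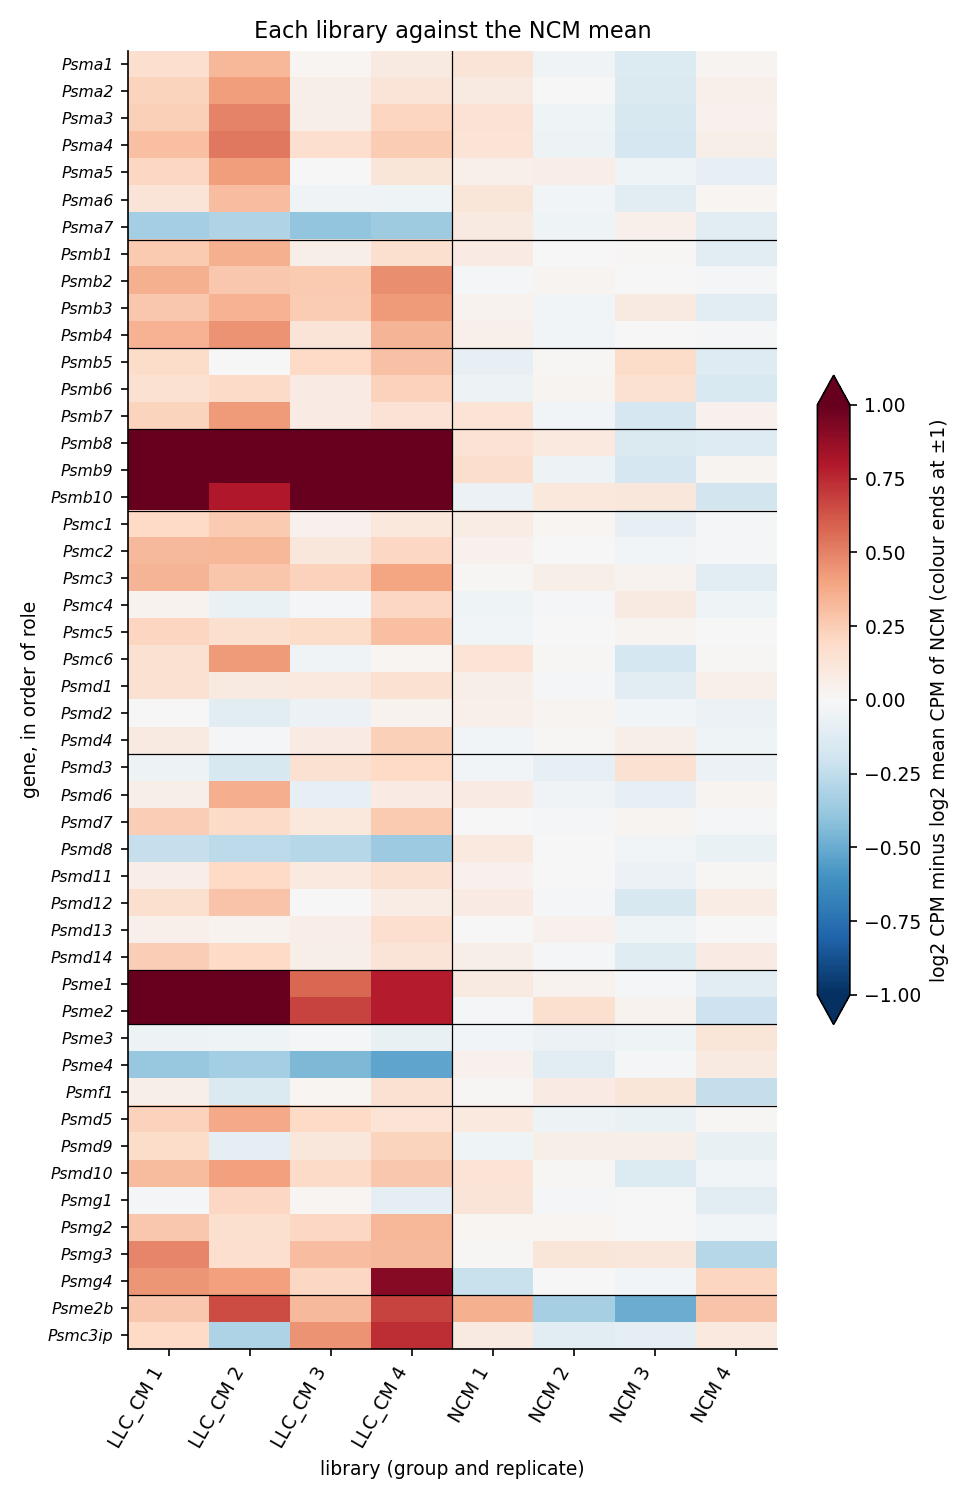
Level of the 48 tested genes in each library as log2 CPM minus log2 of the NCM mean, with genes in order of role and the 4 LLC_CM libraries left of the 4 NCM libraries. Colour ends at -1 and 1. Psmb8 and Psmb9 reach the end of the scale in all 4 LLC_CM libraries, Psma7, Psmd8 and Psme4 are blue in all 4, and the LLC_CM replicate 3 column is paler than the others for many constitutive subunits.

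Of 8 proteasome-associated factors 1 was higher and 2 were lower, with a median log2 fold change of 0.00. The share called, 37.5%, was close to the 36.9% of all genes tested. Pomp, the maturation factor of the 20S core, stood at 119.8 ± 13.9 CPM in LLC_CM and 95.1 ± 2.51 CPM in NCM and rose by 0.33 ± 0.07 on the log2 scale (SE, adjusted p = 0.0022). Sem1, a small lid component listed as Shfm1, fell by 0.29 ± 0.09 (adjusted p = 0.017). Akirin2, which brings proteasomes into the nucleus, fell by 0.20 ± 0.07 (adjusted p = 0.03), and the LLC_CM and NCM values of both genes overlapped. Without LLC_CM replicate 1 or 4 or NCM replicate 1 or 4 the list had 1 gene lower. Of 6 ubiquitin genes only Ubb passed, with a rise of 0.29 ± 0.09 (adjusted p = 0.021), a share of 16.7% beside the 36.9% of all genes. That number was 0 without LLC_CM replicate 1 or 4 or NCM replicate 1, 2 or 4.

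Of 15 regulators of proteasome genes 4 were higher and 4 were lower, with a median of -0.01 and 53.3% called, against 36.9% of all genes. Nfe2l1, which encodes Nrf1, the factor that restores proteasome genes after inhibition, had 171 ± 7.19 CPM in LLC_CM and 170.5 ± 9.87 CPM in NCM. Its log2 fold change was 0.00 ± 0.06 (SE, adjusted p = 0.99). Nfe2l2, which encodes Nrf2, rose by 0.26 ± 0.06, and Ddi2, the protease that activates Nrf1, by 0.24 ± 0.05 (adjusted p = 0.0054 and 0.0027). Stat3 rose by 0.64 ± 0.06 (adjusted p = 7.2e-07), and Foxo1 fell by 0.84 ± 0.09 (adjusted p = 1.9e-06).

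Among 13 tested interferon and class I regulators 7 were higher and 2 were lower, with a median of 0.20 and 69.2% called, against 36.9% of all genes. Nlrc5, the transactivator of class I genes, had 5.17 ± 0.756 CPM in LLC_CM and 1.17 ± 0.522 CPM in NCM and rose by 2.14 ± 0.24 on the log2 scale (SE, adjusted p = 3.5e-06). Irf1, a known activator of Psmb9, rose by 0.76 ± 0.06 (adjusted p = 2e-07). Stat2 rose by 0.57 ± 0.09 and Irf9 by 0.81 ± 0.14 (adjusted p = 1.3e-04 and 4.1e-04), both without overlap. Smaller rises were those of Irf2, by 0.23 ± 0.08, and the receptor gene Ifnar2, by 0.20 ± 0.06 (adjusted p = 0.041 and 0.018). The interferon genes Ifng and Ifnb1 had 0 counts in all 8 libraries. The receptor gene Ifngr1 fell by 0.57 ± 0.06 (adjusted p = 1.2e-06) and the receptor kinase gene Jak2 by 1.49 ± 0.07 (adjusted p = 1.6e-10).

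Of 10 genes that supply and load peptides on class I molecules, 9 were higher and none lower, with a median log2 fold change of 0.86. Of all genes tested 18.8% were higher. Tapbp, the loading factor tapasin, rose by 1.504 ± 0.06 (adjusted p = 5e-11), and the transporter genes Tap1 and Tap2 rose by 0.73 ± 0.10 and 0.98 ± 0.11 (adjusted p = 2e-05 and 5.6e-06). The class I heavy chain H2-K1 rose by 1.497 ± 0.07 and its light chain B2m by 0.67 ± 0.09 (adjusted p = 2.7e-10 and 1.6e-05). Canx, a general chaperone of the list, did not pass (log2 fold change 0.05 ± 0.07, adjusted p = 0.63).

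**Figure D5:**
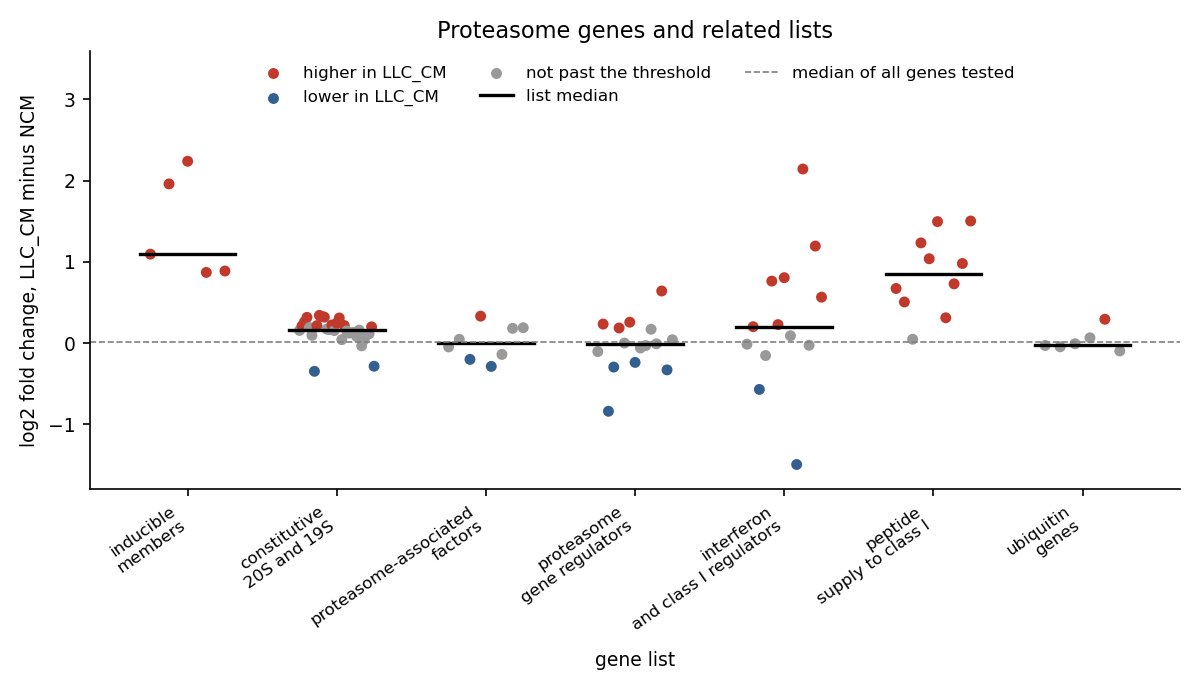
Log2 fold change (LLC_CM minus NCM) of each tested gene in the inducible proteasome genes, the 31 constitutive subunits and 5 related lists. Colours give the call as higher in LLC_CM (red), lower in LLC_CM (blue) or not past the threshold (grey), with the list median as a bar and the median of all genes as a dashed line. Medians are 1.10 for the inducible genes, 0.16 for the constitutive subunits and 0.86 for peptide supply, and the other lists lie between -0.02 and 0.20.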

How the data were processed

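RNA of 8 MC3T3 samples was sequenced from poly(A)-selected libraries with the TruSeq kit named in the labels' protocols, which does not mark strand. The deposited table holds raw read counts per gene. CASAVA, STAR, featureCounts and mm10 are named in the submitters' processing notes, and their versions are not given in the sources used here. Each library's group and replicate number are those of its sample title.

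Of 43346 rows, 14991 passed edgeR's filterByExpr and were fitted together in R 4.3.3 with edgeR 4.0.16 and limma 3.58.1 (quasi-likelihood F test, TMM, robust, no covariate, Benjamini-Hochberg adjustment over all genes at 0.05). Standard errors were derived from the F statistic and the fold change. Ratios of subunit counts were compared by exact permutation over libraries. The fits were tested on simulated data. DESeq2 1.42.0, limma-voom, other scalings, filters and designs, and leaving out each library were the alternatives. No pair of libraries was a repeat (chi-square per degree of freedom at least 7.07).

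All rows of the rule are named. Values per library are given for Psmb5 to Psmb10, Psme1, Psme2 and the highest and lowest log2 fold change of each other role, and list genes were picked after their values were seen. The members and lists were chosen with earlier results of these data known. Overlaps and transcript lengths came from GENCODE M21, similar transcripts from blastn 2.17.0 and promoter windows from RefSeq (GRCm38.p6). Psmb7 had no window, and Paaf1, also on the list of associated factors, was not analysed here. The value of 1 gene of the interferon list is not reported here. The floor of 3 counts covers counting error only, while standard errors and SDs hold the spread between libraries.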

Additional observations from a re-analysis of the deposited data

Results flagged for a closer look

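Psme3, the PA28 gamma gene, had a level of 85.3 CPM in NCM replicate 4, apart from the other NCM libraries, which lay between 75.6 and 77.1 CPM. The gap to the nearest library was 0.848 of the group's range, above Dixon's critical value for 4 samples. The LLC_CM libraries lay between 74.7 and 77.6 CPM. This was 1 flag among 102 groups examined, and chance alone flags about 1 group in 20.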

How the results depend on the processing

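Under 18 alternative settings, 17 of the 26 calls were kept throughout: Psmb8, Psmb9, Psmb10, Psme1, Psme2, Psmb2, Psmb3, Psmb4, Psma4, Psmc2, Psmc3, Psmc5, Psmd5 and Psmd7 as higher, and Psma7, Psmd8 and Psme4 as lower. Of 864 gene results, 789 kept direction and side of the threshold, 55 lost the call, 13 gained one and 7 turned direction. The number higher was 20 to 26 under the other scalings, filters, tools and designs, 14 at an adjusted p of 0.01, and 16 to 25 when 1 library was left out. The upper-quartile scaling and the 1 CPM filter added calls for Psmc1 and Psmd14, and the scaling one for Psmb6 (adjusted p = 0.049). Constitutive subunits higher numbered 8 to 15 when 1 library was left out and 8 at 0.01. At 0.01 the associated factors had 0 lower and the ubiquitin genes 0 higher. Leaving out 1 library gave 1 to 2 associated factors higher and 1 to 3 lower, and 0 to 1 ubiquitin genes higher. Turned directions were all in genes that did not pass, when 1 library was left out, with log2 fold changes of -0.031 to 0.065 for Psmg1, -0.020 to 0.104 for Psmd3, -0.051 to 0.081 for Psmf1 and -0.024 to 0.078 for Psmc4. No call but that of Psmg3 was lost with the replicate number as a block (adjusted p = 0.059), and Psma5 gained one (0.035). Same-numbered samples did not all deviate together (r = 0.113, -0.070, 0.269 and -0.075), and not every sample correlated best with its own number, so the numbers were not taken to pair samples. With that block 23 genes were higher and 3 lower, and an exact sign-flip test of the paired ratios (1.79, 2.08 and 0.86 on the log2 scale) gave p = 0.12 for each, the smallest that 4 pairs allow. Without 1 library the Psmb10 to Psmb7 difference ran from 0.726 to 1.02. The median of all genes moved by less than 0.1 under every scaling. The causes were not tested. At 61 to 80 counts per NCM library, counting error for Psmb9 is larger than for the constitutive subunits.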
